A study of Homo sapiens with 8 samples.

Results

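In HepG2, a human hepatoblastoma line used as a model of liver cells, 581 stretches of chromatin separated macroH2A1 domains in cells given a non-targeting siRNA (siControl) and lay inside macroH2A1 domains in each of the 2 libraries of cells given an siRNA against ANP32B (siANP32B). The stretches were selected on the domain calls themselves. On a 1 kb grid over chromosomes 1 to 22 (hg38), a bridging stretch is a run of bins inside domains of both siANP32B libraries and of neither siControl library, with a domain of at least 1 siControl library directly to its left and to its right. They made up 15.1% of the 3847 stretches that the siANP32B libraries shared and the siControl libraries lacked, of which a further 2683 touched a siControl domain on 1 side and 583 touched none. Because the rule used the contrast between the siRNAs, the values of that contrast are given below as a description, with no test.

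The study held 8 CUT&RUN libraries, 4 with home-made antibodies against macroH2A1 and 4 with a non-targeting IgG, in each case 2 for siControl and 2 for siANP32B. All cells were HepG2 transfected with the siRNA in RNAiMax and taken 3 days later, and chromatin of thawed, cryopreserved cells was digested for 30 min. The domain lists of the 4 anti-macroH2A1 libraries are described here, and the IgG libraries were not analysed here. The labels number the replicates without saying whether they came from separate cultures, so agreement between libraries may be technical.

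MacroH2A1 is a variant of histone H2A with a large globular macro domain joined to its tail end, found over broad stretches of weakly transcribed chromatin in many cell types. ANP32B is an acidic histone chaperone of the ANP32 family, proteins that carry histones and pass them to or take them from DNA. In CUT&RUN a nuclease is tethered by an antibody to chromatin of permeable cells, and the DNA that it cuts free is sequenced. A domain is a run of windows in which the caller found enrichment, so a bridge says that the call was continuous there, not by how much the signal differed.

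The siRNA that defines each group is shown first, since it is the labelled difference between the groups.

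siControl siRNA: ugguuuacaugucgacuaa
siANP32B siRNA: ugacuaccgagagagugucuu

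A protein-coding gene start listed in the RefSeq promoter table lay in 25 of the bridges (4.30%), a table without an entry for GAL, SAA2 and SAA2-SAA4, and 6 of the genes that lay whole inside a bridge show the range of promoters concerned. Each sequence below is the 250 bases before the transcript start that the RefSeq promoter table lists (GRCh38.p14, the assembly of hg38), 5′ to 3′ on the strand of the gene, with every CG dinucleotide in capitals. For IL10RA that start lies inside the annotated gene span, which begins at base 117986394.

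IL10RA, chr11:117989695-117989944, plus strand: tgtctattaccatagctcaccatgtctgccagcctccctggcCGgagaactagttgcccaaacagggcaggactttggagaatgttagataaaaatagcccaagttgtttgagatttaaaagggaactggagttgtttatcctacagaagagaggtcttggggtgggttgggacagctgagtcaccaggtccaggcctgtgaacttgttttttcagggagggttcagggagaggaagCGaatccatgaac
CTLA4, chr2:203867521-203867770, plus strand: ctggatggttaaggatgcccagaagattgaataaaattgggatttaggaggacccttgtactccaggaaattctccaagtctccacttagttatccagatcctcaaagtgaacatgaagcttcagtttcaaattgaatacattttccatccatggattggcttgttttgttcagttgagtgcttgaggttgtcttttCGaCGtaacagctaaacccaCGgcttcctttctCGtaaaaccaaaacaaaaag
TREM2, chr6:41163117-41163366, minus strand: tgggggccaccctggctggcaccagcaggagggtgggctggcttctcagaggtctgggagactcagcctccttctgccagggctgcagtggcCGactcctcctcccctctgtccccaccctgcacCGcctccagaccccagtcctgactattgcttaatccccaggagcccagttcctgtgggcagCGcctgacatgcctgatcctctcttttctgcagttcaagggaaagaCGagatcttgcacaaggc
SAA4, chr11:18236803-18237052, minus strand: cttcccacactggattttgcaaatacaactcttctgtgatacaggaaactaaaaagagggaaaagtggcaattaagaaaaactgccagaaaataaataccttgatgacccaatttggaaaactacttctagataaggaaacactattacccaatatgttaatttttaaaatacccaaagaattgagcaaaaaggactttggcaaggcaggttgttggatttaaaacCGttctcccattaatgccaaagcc
NEUROG1, chr5:135535965-135536214, minus strand: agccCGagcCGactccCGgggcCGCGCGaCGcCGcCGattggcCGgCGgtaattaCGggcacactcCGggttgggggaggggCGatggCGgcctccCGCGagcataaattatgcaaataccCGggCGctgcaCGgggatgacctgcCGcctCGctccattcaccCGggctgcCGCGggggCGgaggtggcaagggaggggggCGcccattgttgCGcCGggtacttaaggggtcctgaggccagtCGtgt
ADRA2C, chr4:3766135-3766384, plus strand: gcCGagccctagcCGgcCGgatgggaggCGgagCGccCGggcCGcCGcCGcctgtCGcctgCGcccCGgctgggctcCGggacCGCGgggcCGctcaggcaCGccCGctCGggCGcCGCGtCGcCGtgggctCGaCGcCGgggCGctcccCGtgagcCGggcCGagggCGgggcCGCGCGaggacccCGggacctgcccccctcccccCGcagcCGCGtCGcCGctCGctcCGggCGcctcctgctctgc

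The immune receptors IL10RA, CTLA4 and TREM2 had 2, 4 and 4 CG dinucleotides in this window, and SAA4, a serum amyloid A protein of liver and plasma, had 1. NEUROG1, a transcription factor of early neurons, had 30 and the adrenergic receptor gene ADRA2C had 44, so both kinds of promoter occurred. Over the 34 starts of 26 protein-coding genes that lay in a bridge and matched the RefSeq table, the median was 13 CG against 17 over all 21155 starts, and 52.9% against 65.8% had 10 or more. The motif TATAAA, searched on both strands, was in 2 of the 34 windows (5.88%) and in 9.03% of all of them.

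Most bridges were short. The median was 7 kb, the quartiles were 6 and 10 kb, and the whole set came to 7.05 Mb. Stretches of 6 to 8 kb numbered 274 (47.2%), and those of 1 to 5 kb numbered 133 (22.9%). In each of the 4 lists the smallest separation between neighbouring domains was 6 kb, so that domains up to 5 kb apart appear to have been merged into 1 call. A bridge of 6 to 8 kb is therefore about as long as the smallest gaps that the caller leaves. Where its flanks come from different siControl lists, the gap within each list is longer than the bridge. In the plot of bridge lengths the number of stretches jumps at 6 kb and then drops off.

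**Figure D1:**
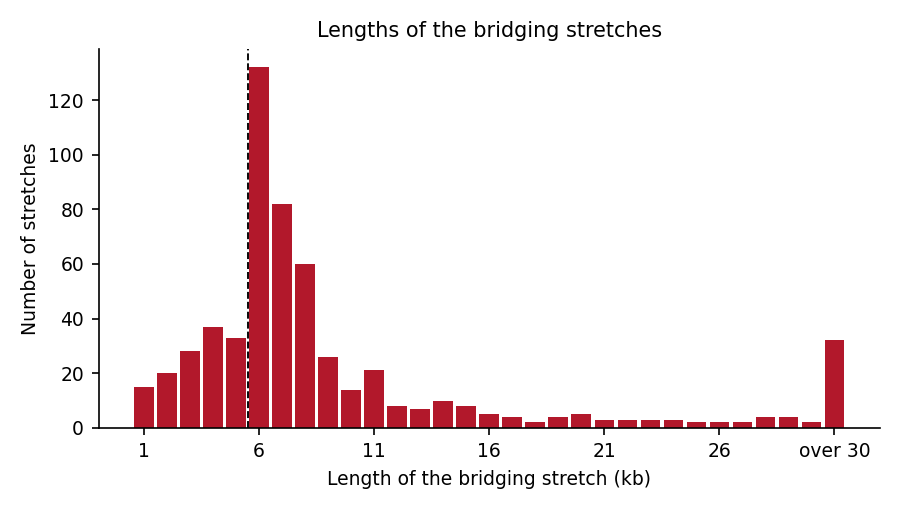
Number of bridging stretches (vertical axis) by length in kb (horizontal axis), with the last bar pooling those over 30 kb. The dashed line lies between 5 and 6 kb, the smallest separation of neighbouring domains in each list, and 6 to 8 kb holds 274 of the 581 stretches.

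The short bridges also rest on the rule's use of either siControl list. Domains up to 5 kb apart appear merged within each list. The 133 stretches of 1 to 5 kb therefore could not lie between domains of the same siControl list. In each, the left domain came from one library and the right domain from the other. Over all 581, 314 (54.0%, 95% interval 49.9 to 58.2) lay between neighbouring domains of a single siControl list. The 2 flanks came from different single lists in 267 (46.0%), and from the same single list in 255 (43.9%), 153 of them in siControl replicate 1 and 102 in replicate 2. Intervals on shares are exact Clopper-Pearson intervals and cover counting error over stretches, which are not replicates.

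In 8 stretches (1.38%) both siControl libraries had a domain on both sides, so that they left the same gap bin for bin. These 8 were 6 to 15 kb long and 61 kb in all. The longest, at chr17:50096001-50111000, lay between siControl domains and within siANP32B domains of 520 kb in replicate 1 and 279 kb in replicate 2, and covered parts of PDK2, a kinase that restrains pyruvate dehydrogenase, and SAMD14. PDK2 and SAMD14 were named after the values were seen.

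Seen from the siControl side, 581 of 8810 gaps between siControl domains (6.59%) were filled from end to end in both siANP32B libraries, which is the share the rule itself selects. Short gaps were filled more often than long ones. Of gaps of 1 to 5 kb, 133 of 289 (46.0%) were filled, of 6 to 10 kb 314 of 1072 (29.3%), of 11 to 20 kb 74 of 721 (10.3%), of 21 to 50 kb 41 of 1360 (3.01%), and of longer ones 19 of 5368 (0.354%). Just outside the rule, 467 gaps were filled in siANP32B replicate 1 alone and 466 in replicate 2 alone, and 50 were filled in both except for 1 or 2 kb. The count rests on all 4 lists: it was 1108 without siControl replicate 1, 855 without siControl replicate 2, 1047 without siANP32B replicate 1 and 1048 without siANP32B replicate 2.

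The reverse event was counted in the same way. Gaps between siANP32B domains that both siControl libraries filled numbered 185 of 7643 (2.42%), with a total of 1254 kb and a longest of 29 kb. At each length the share was lower than for the bridges: 23.5% of gaps of 1 to 5 kb, 10.9% of 6 to 10 kb, 2.54% of 11 to 20 kb and 0.541% of 21 to 50 kb. None of 4810 gaps over 50 kb was filled this way, for which the upper 95% limit is 0.0767%. The siANP32B libraries held fewer and longer domains than the siControl libraries, 7475 and 7341 with a median of 48 kb in each against 8504 and 8026 with a median of 39 kb, and covered 562.0 and 556.4 Mb against 515.6 and 464.8 Mb. Read depth is unknown for all 4, and the part of depth or caller settings in either count was not tested.

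**Figure D2:**
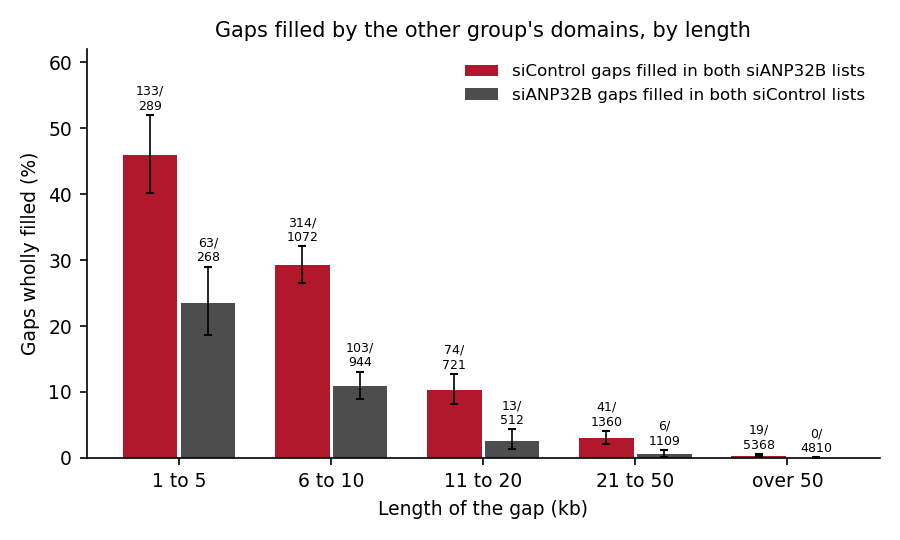
Share of gaps wholly filled by the domains of the other group (vertical axis, %), by gap length (horizontal axis, kb), for siControl gaps filled in both siANP32B lists (red) and siANP32B gaps filled in both siControl lists (grey). Numbers give filled gaps over all gaps, and bars show exact 95% intervals for counting error; at 6 to 10 kb the shares are 29.3% and 10.9%, and over 50 kb they are 19 of 5368 and 0 of 4810.

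Although few, the long bridges held much of the bridged sequence. The 19 stretches over 50 kb (3.27% of all) summed to 2127 kb, or 30.2% of the total length, and the 10 over 100 kb to 1568 kb. Without the 10% lowest-scored domains of each list 11 stretches were over 50 kb, and with 1 library left out 19 to 49 were. The longest was 332 kb at chr16:13495001-13827000. It held 68.0 kb of SHISA9, which encodes an auxiliary subunit of AMPA-type glutamate receptors, and ran on beyond that gene. In siControl replicate 1 the uncovered run there was 437 kb and in replicate 2 it was 458 kb, whereas a single domain of 1350 kb in siANP32B replicate 1 and of 1137 kb in replicate 2 ran through it. Both of these siANP32B domains were among the 10% lowest-scored of their lists, so this bridge was absent when those were left out.

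A cluster of 3 long bridges lay at GRIN2A, the gene of an NMDA receptor subunit, on the short arm of chromosome 16. Bridges of 103, 117 and 190 kb, at chr16:9487001-9590000, chr16:9653001-9770000 and chr16:9872001-10062000, lay in 1 siANP32B domain of 1431 kb in replicate 1 and of 1295 kb in replicate 2. The gene spans 429.5 kb, of which 206.6 kb (48.1%) was bridged. Domains covered 35.1% of it in siControl replicate 1, 47.0% in siControl replicate 2 and 100% in each siANP32B library. Both siControl libraries had a domain over the right part of the gene, while to its left and in its middle their domains lay at different positions, as the map of the locus shows. The authors' deposited table of differential regions, read below as siANP32B against siControl, has no region that overlaps these bridges. Beside them, the region in GRIN2A was not called, with a log2 fold of -0.00 (false discovery rate 0.996). Regions to its right, at -0.28 (0.530) and -0.19 (0.305), were not called. The region at chr16:9312001-9324000 was called lower, at -0.62 (0.00107).

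**Figure D3:**
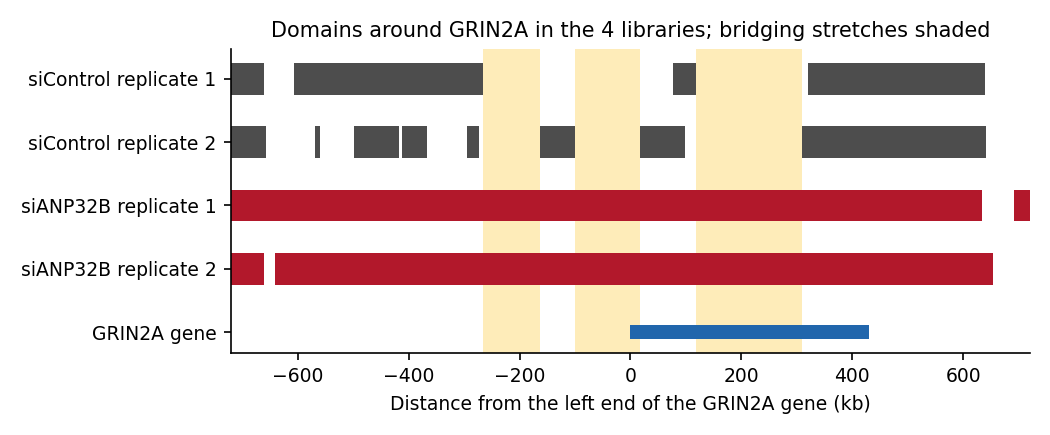
Domains of the 4 anti-macroH2A1 libraries around GRIN2A (siControl grey, siANP32B red, gene body blue), drawn to scale by distance in kb from the left end of the gene. Shading marks the 3 bridging stretches of 103, 117 and 190 kb, where the siANP32B libraries alone have a domain.

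Other long bridges met protein-coding genes over most of their length or only at an end. HS3ST2, a heparan sulfate sulfotransferase, was 98.2% inside a bridge of 101 kb, and its coverage was 0% and 1.94% in siControl against 100% in each siANP32B library. A bridge of 174 kb reached 2.89 kb into GPR139, a receptor found in brain, and took in its start. On chromosome 20, bridges of 165 and 142 kb lay in 1 siANP32B domain (842 kb in replicate 1, 641 kb in replicate 2), the second reaching 7.25 kb into BMP7, a secreted growth factor of the BMP family. All of these genes were wholly inside domains in both siANP32B libraries.

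On chromosome 6, RIPOR2, an inhibitor of RhoA signalling, met a bridge of 143 kb, and its coverage was 24.7% and 70.7% in the siControl libraries and 90.8% and 97.1% in the siANP32B libraries. SKAP1, an adaptor protein of T cells, held the largest number of bridges of any gene, 4, including part of one of 86 kb. Domains covered 33.9% and 68.4% of it in siControl, against 97.8% and 100% in siANP32B. MARCO, a scavenger receptor of macrophages, was covered to 0% and 45.3% in siControl and to 100% in both siANP32B libraries, with 54.6% of it bridged by a stretch of 58 kb. In each of these genes both siANP32B values were above both siControl values, which the rule favours. At RIPOR2, SKAP1 and MARCO the siControl libraries also differed widely from each other.

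The long bridges lay on particular chromosomes. Of the 19 over 50 kb, 18 (94.7%, 95% interval 74.0 to 99.9) were on chromosomes 2, 6, 14, 16, 17 and 20, of which HepG2 is known to carry extra copies, whole or in part. None was on chromosome 14, where the longest bridge was 40 kb. These 6 chromosomes hold 26.4% of the grid and 28.0% of the siControl gaps over 50 kb. Chromosome 16 alone held 34 stretches with 1412 kb, 20% of all bridged length, and 10.8% of its gaps were filled, against 1 stretch of the reverse kind. Chromosome 20 had 442 kb of bridges, with 10.4% of gaps filled and 0 of the reverse kind. The remaining long bridge was 58 kb on chromosome 1.

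Number and length behaved differently. By number the 6 chromosomes held 205 bridges (35.3%), and by length 4075 kb (57.8%). On them 8.49% of gaps were filled, against 5.88% on the other 16, and the median bridge was 7 kb in both sets. The reverse kind was 28 on the 6 chromosomes and 157 on the other 16. These are counts without the number of siANP32B gaps on each set, so they cannot be set against the filled shares.

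Long domains lay on these chromosomes in all 4 libraries, whatever the siRNA. Of domains over 200 kb, 61.1% and 63.8% lay on those 6 chromosomes in siControl replicates 1 and 2, and 66.2% and 64.0% in siANP32B replicates 1 and 2. Long stretches of other kinds were also concentrated there: 40 of 46 siANP32B-specific stretches over 50 kb that touched a siControl domain on 1 side (87.0%), and 17 of 22 siControl-specific ones that touched no siANP32B domain (77.3%). The part of copy number in the long bridges was not tested.

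**Figure D4:**
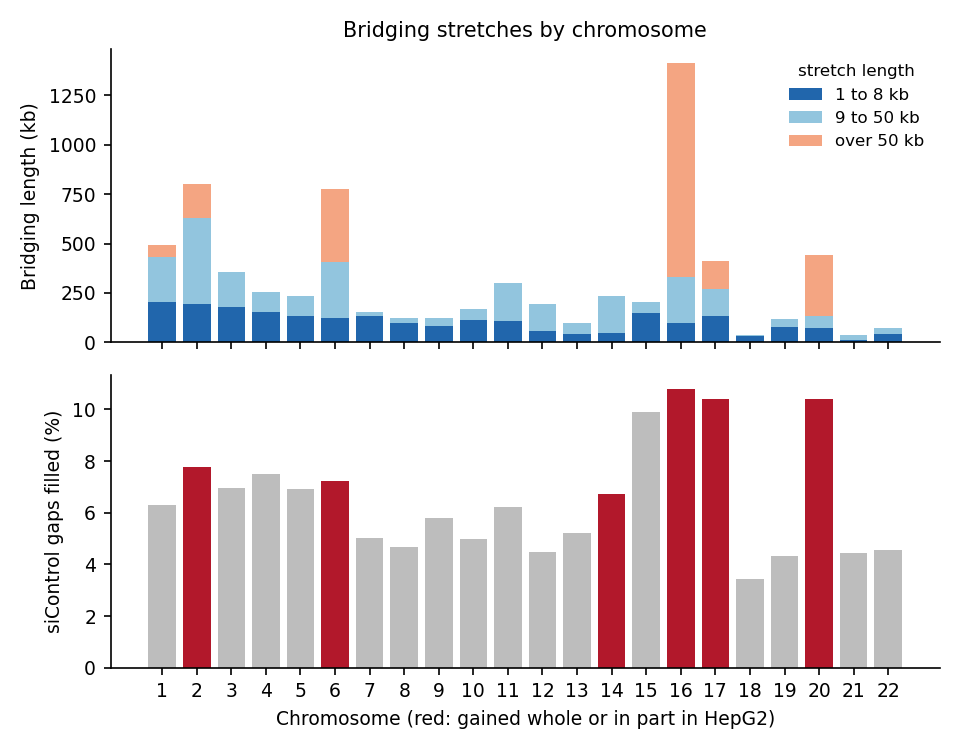
Top: bridged length in kb on each chromosome, split by the length of the stretch. Bottom: share of siControl gaps filled in both siANP32B lists (%), with chromosomes gained whole or in part in HepG2 in red; chromosome 16 stands highest in both panels, with 1412 kb and 10.8%.

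The score of a domain, the caller's own value, was also low around long bridges. Within siANP32B replicate 1 the domain around a stretch of 6 to 8 kb had a median score percentile of 50.6, against 18.2 for those over 50 kb. In replicate 2 the medians were 45.4 and 14.1. The domains around the SHISA9 bridge stood at percentile 0.398 in replicate 1 and 2.03 in replicate 2, and those around GRIN2A at 18.2 and 16.1. An exception was the 58 kb bridge on chromosome 1, at 97.7 and 97.0. The score is thus a description of where long bridges lay, and it ranks domains within a library alone.

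The joined domains, meaning unbroken runs in both siANP32B lists that hold a bridge, numbered 534 of 7114 runs (7.51%). Of these, 493 held 1 bridge, 35 held 2 and 6 held 3. They were 10 to 1275 kb long with a median of 79.5 kb, against 38 kb over all runs. The rule favours this, since a joined domain must hold a whole gap. A median of 86.6% of a joined domain was already in a siControl domain, so that the bridge was usually the smaller share. Nearly all bridges were continuous on both sides: the siANP32B domains ran into both flanks in both libraries for 552 of 581 (95%).

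Library by library, 524 of 7475 domains in siANP32B replicate 1 (7.01%) and 518 of 7341 in replicate 2 (7.06%) held a bridge. Their median lengths were 106 and 112 kb, against 45 kb for the other domains of each library. Such a domain must hold a whole siControl gap, and a longer domain has more room for one. The rule thus favours these lengths and the values that follow. Of domains of 200 kb or more, 27.4% and 30.1% held one. Of the siANP32B replicate 1 domains with a bridge, 76.0% overlapped at least 2 domains of siControl replicate 1, and the most was 7. Each such domain was also set against the longest siControl domain that overlapped it, taken at full length. The median ratio was 1.60 for replicate 1 against replicate 1 and 1.96 for replicate 2 against replicate 2.

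**Figure D5:**
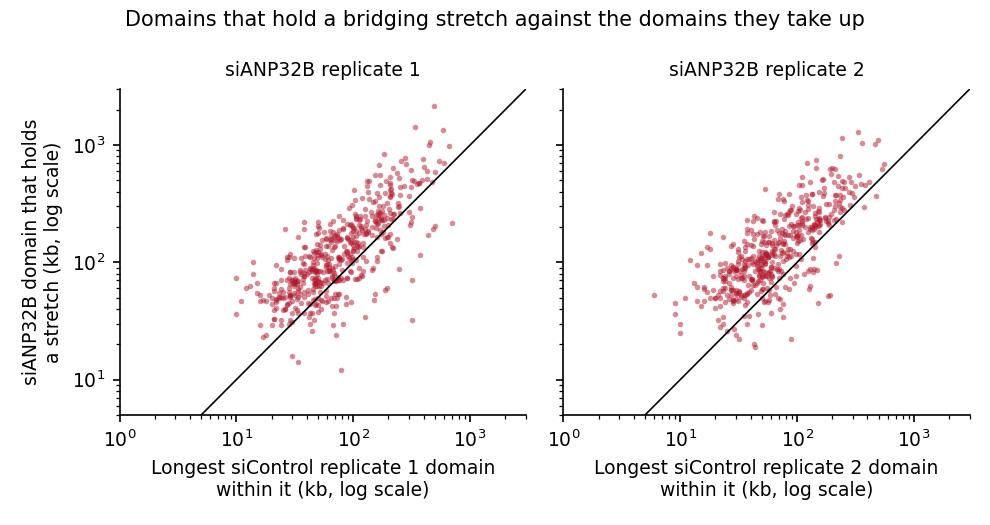
Length of siANP32B domains that hold a bridging stretch (vertical axis, kb, log scale) against the longest siControl domain that overlaps each (horizontal axis, kb, log scale). Replicates numbered 1 are on the left and 2 on the right. The siControl domain is taken at full length, and siANP32B domains that overlap none of the same number are left out. The line marks equal lengths; most points lie above it, with median ratios of 1.60 and 1.96.

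The 6 joined domains with 3 bridges included GRIN2A (1275 kb, of which 65.1% was in a siControl domain). A domain of 483 kb on chromosome 20 overlapped JPH2, TOX2, MYBL2, GTSF1L and OSER1. Of these genes TOX2 alone met a bridge, over 8 kb (5.17% of the gene). One of 443 kb on chromosome 2 overlapped AGAP1, which none of its bridges met. The other 3 were at SKAP1 (236 kb), at TRPM1, a cation channel of melanocytes and retina (188 kb), and across DAB1 and the complement gene C8B (150 kb). C8B itself met no bridge. DAB1, an adaptor in reelin signalling, spans 1551.9 kb, and its coverage was 20.7% and 24.3% in siControl against 24.0% and 26.5% in siANP32B. A gene could thus hold 3 bridges with little difference in its covered share. The domain that held the BMP7 bridges, 621 kb on chromosome 20, had 47.0% of its length in a siControl domain. DAB1 and C8B were named after the values were seen.

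Protein-coding genes were met by 271 of the 581 bridges (46.6%, 95% interval 42.5 to 50.8). Bridges inside a single gene body numbered 208 (35.8%), those with an end of a gene but no whole gene 54, and those with at least 1 whole gene 9. A further 127 (21.9%) met other annotated genes alone, and 183 (31.5%) met no annotated gene. By length, 39.9% of bridged sequence was in protein-coding gene bodies, between the 33.4% of siControl domains and the 42.1% of the whole grid, and below the 46.2% of siANP32B-specific stretches that touched a siControl domain on 1 side. Gene starts listed in the promoter table were sparse, at 4.82 per Mb in the bridges against 17.4 per Mb in stretches touching on 1 side, 8.82 in separate ones and 7.36 over the grid.

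In all, 273 of 19122 protein-coding genes (1.43%) met a bridge, and 20 met more than 1. They were long genes, with a median of 72.6 kb against 24.5 kb over all protein-coding genes, and a long gene has more room for a bridge. The genes that reached into siControl domains on both sides of the longest bridges were GRIN2A, UST, SDK2, FBLN5, NTN1, TRABD2B, RANBP2, SHISA9, RAD51B and IL1R1. UST, a sulfotransferase of glycosaminoglycan chains, held a bridge of 57 kb, and SDK2, a cell adhesion protein of retinal synapses, one of 54 kb. In the authors' deposited table a region at SDK2, outside its bridges, was called lower, with a log2 fold of -0.55 (false discovery rate 0.0437). One at UST, also outside its bridge, was not called, at -0.21 (0.688).

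FBLN5, an elastic fibre protein, was bridged over 54.9% of its length by 2 stretches, with coverage of 30.4% and 34.2% in siControl against 100% in each siANP32B library. NTN1, the axon guidance ligand netrin, held 3 bridges and was covered to 49.0% and 63.5% in siControl and to 88.4% and 99.2% in siANP32B. At these genes the 2 siControl values lay closer together than at SKAP1. In the authors' deposited table a region at FBLN5 and TC2N was called lower, with a log2 fold of -0.48 (false discovery rate 0.0360). One in NTN1, at 0.32 (0.502), was not called. Neither region overlapped a bridge. RANBP2, a nuclear pore protein annotated over 1122.8 kb, and RAD51B, a DNA repair gene of 863.3 kb, were bridged over 3.38% and 3.71%, so that their bridges were a small part of the gene.

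The 12 genes that lay whole inside a bridge were small and of varied function. IL10RA, the receptor for interleukin 10, lay in a bridge of 50 kb, and CTLA4, an inhibitory receptor of T cells, in one of 45 kb. TREM2, a receptor of macrophages and microglia, and TREML1, its relative on platelets, shared one of 32 kb. GAL, the neuropeptide galanin, lay in 29 kb, and SAA2, SAA4 and their readthrough SAA2-SAA4, of the serum amyloid A family, in 23 kb.

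The other 4 lay in short bridges: CASP14, a caspase of the epidermis, in 11 kb, SPATA20 in 10 kb, NEUROG1 in 6 kb and ADRA2C in 4 kb. By the rule these genes had 0% coverage in each siControl library and 100% in each siANP32B library. The siControl edges differed widely between the replicates for some: around GAL the uncovered run was 540 kb in replicate 1 and 29 kb in replicate 2, and around CTLA4 386 and 59 kb. Around ADRA2C they were 7 and 6 kb and around NEUROG1 6 and 22 kb, so that at these both siControl libraries had a narrow gap.

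MicroRNA genes lay inside a bridge 7 times, and 5 of them matched the RefSeq table. No share over all annotated microRNA genes is given here, so the count does not say whether bridges hold many or few of them. MIR516A2 and MIR519A2, of the microRNA cluster on chromosome 19 that is known from placenta, shared a bridge of 7 kb at chr19:53761001-53768000, in which the siControl gaps were 8 and 10 kb and the siANP32B domains 169 and 52 kb. Their mature sequences (RefSeq, GRCh38.p14) are shown with the seed, bases 2 to 8, in capitals; no seed is shared among the 4. Copies in this cluster, in the serum amyloid A family and around RANBP2 are near-identical, and the sources used here do not say how the authors' alignment placed reads among such copies.

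hsa-miR-516a-5p: uUCUCGAGgaaagaagcacuuuc
hsa-miR-516a-3p: uGCUUCCUuucagagggu
hsa-miR-519a-2-5p: cCUCUACAgggaagcgcuuuc
hsa-miR-519a-3p: aAAGUGCAuccuuuuagagugu

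Of 18 gene lists, most held few members with a bridge, which is read against the 1.43% over all protein-coding genes. None of 22 genes of secreted hepatocyte proteins, 55 cytochrome P450 genes, 55 keratins, 91 cadherins and protocadherins, 94 potassium channels, 99 SOX, FOX and HOX factors and 14 fibroblast and endothelial markers met one. At a share of 1.43%, an absence from lists this short says little. SAA2 and SAA4, which lay whole inside a bridge, are not among the 22 listed. Among liver transcription factors 1 of 19 did, NR5A2, with a bridge of 5 kb. Domains covered 79.5% and 33.8% of NR5A2 in siControl and 49.7% and 63.6% in siANP32B. The authors' deposited table calls a region in it lower, with a log2 fold of -0.48 (false discovery rate 0.0144). Blood lineage markers had 1 of 18, ITGAM. Domain lists carry no expression, so hepatocyte identity and the depth of the knockdown could not be checked here.

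Secreted growth factors had 4 of 63 members with a bridge (6.35%), WNT9A, BMP7, BMP6 and WNT8B, and collagens 3 of 42 (7.14%), COL5A2, COL26A1 and COL21A1. WNT9A, a WNT ligand, was 54.7% bridged by 16 kb, with coverage of 46.7% and 0% in siControl and 80.0% and 100% in siANP32B. COL21A1 met 1 kb of a bridge, and its coverage was higher in siControl, at 98.2% and 88.5%, than in siANP32B, at 77.3% and 80.8%. The collagens are long genes, with a median of 133 kb. Solute carriers had 7 of 333 (2.10%), among them SLC46A1, the folate transporter of the gut, with 66.9% of the gene bridged. Of 497 ZNF genes 2 did (0.402%), ZNF219 and ZNF423, and of 389 olfactory receptors 1, OR7C1. Among axon guidance genes NTN1 and SLIT3 met a bridge (2 of 71), and among integrins and laminins ITGAM and ITGA11 (2 of 41).

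The 16 genes of the ANP32 family, macroH2A and related chaperones met no bridge. ANP32B itself lay outside domains in all 4 libraries. MACROH2A1, which encodes the profiled histone, was covered to 31.8% and 4.55% in siControl and to 1.52% and 0% in siANP32B, and MACROH2A2, its paralogue, to 26.2% and 0% against 21.3% and 3.28%. At both genes the siControl replicates differed widely from each other.

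The authors' deposited table of differential regions shows signal in and beside the bridges, from the same libraries and thus not as independent support. Its fold was read as siANP32B against siControl: called regions with a positive fold lay 84.9% and 76.6% in siControl domains against 98.3% in each siANP32B list, and those with a negative fold 97.0% and 95.5% against 92.9% and 94.0%. On chromosomes 1 to 22 the authors' deposited table holds 4261 regions. With a threshold of 0.05 on its false discovery rate, the authors' deposited table calls 59.0% of them lower and 3.94% higher. In the authors' deposited table, 414 regions lay at least 50% in a joined domain, and 197 of them (47.6%) were lower and 28 (6.76%) higher. By the authors' deposited table, those 414 had a median log2 fold of -0.44, and the other regions one of -0.55. Regions in the joined domains were therefore more often called lower than higher, as over all regions. The share called lower was smaller there than over all regions and the share called higher was larger, which the rule favours.

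The bridges themselves were little tested. Of 581, 25 overlapped a region of the authors' deposited table, by 1 to 8 kb. Of these regions 7 were lower (28.0%, against 59.0% over all regions), 8 higher (32%, against 3.94%) and 10 not called. Their median log2 fold was -0.01. They were picked by overlap with bins in siANP32B domains alone, so the rule favours higher folds among them. A single region lay at least 50% in a bridge, in SPATA13, at chr13:23997001-24007000, for which the authors' deposited table gives a log2 fold of 0.56 and a false discovery rate of 0.0230. The other regions lay mostly outside the bridge they touched.

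Among those edge regions the folds went both ways. In the authors' deposited table the region in OSBPL10, a lipid-binding protein of the oxysterol-binding family, had a log2 fold of 1.39 (false discovery rate 4.32e-13), and that in ACER3, an alkaline ceramidase, 0.99 (7.35e-06). CYTH3, an exchange factor for ARF proteins, had 0.65 (0.00180) and FRMD4B 0.54 (0.0478) in the authors' deposited table. Lower were the regions in MYZAP and the overlapping GCOM1, at -0.80 (8.70e-05), and in B4GALNT3, at -0.96 (1.56e-05), again from the authors' deposited table. ALOX15, a lipoxygenase, at -0.36 (0.234), and the synaptic adhesion gene NRXN2, at -0.01 (0.965), were not called there. Beside the microRNA bridge on chromosome 19, a region sharing 1 kb with it had a log2 fold of -0.69 (0.00817) in the authors' deposited table.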

How the data were processed

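MacroH2A1 was mapped by CUT&RUN in HepG2 cells given siControl or siANP32B. The build was hg38 and the tools were edgeR, SICER, deepTools, SAMtools, Bowtie2 and Trim Galore, per the submitters' processing notes; the sources used here give neither versions nor settings. For each anti-macroH2A1 library the authors deposited a domain list, with a score for each domain that is the caller's own; it served to rank and filter domains. The authors' deposited table of 4474 regions gives for each, per the file headers, a p-value, its false discovery rate, a representative fold read as log2 (the convention of edgeR), and numbers of windows tested, up and down; other columns with values per sample numbered 0. It holds no counts, so read depth is unknown and no count test was made.

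The lists were laid on a 1 kb grid of chromosomes 1 to 22 with Python 3.11.15, numpy 2.4.6 and pandas 2.3.3; intervals came from scipy 1.17.1 at a confidence level of 95%, and figures from matplotlib 3.10.9. Gene spans came from RefSeq (GRCh38.p14, 19122 protein-coding genes). The detection of stretches was tested on simulated lists. With 2 libraries per group the smallest two-sided exact p is 0.333, and no test was run. The alternatives were leaving out each library, same-numbered libraries alone, stricter flanks, score filters, a minimum of 3 kb and other sets of chromosomes; those on long stretches and on the reverse kind were chosen after seeing the data.

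The members and gene lists were chosen with earlier results of these data known. Named genes were those with the longest overlap of the 20 longest stretches, genes whole inside a stretch, the 10 that reach siControl domains on both sides of the longest stretches, genes of the 5 joined domains with most stretches, genes of stretches that overlap a tested region, up to 4 members for each of 18 lists, and ANP32B, MACROH2A1 and MACROH2A2.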

Additional observations from a re-analysis of the deposited data

How the results depend on the processing

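With 1 library left out, the number of bridging stretches was 855 to 1108 in place of 581, since fewer lists had to meet the rule: 1108 without siControl replicate 1, 1047 without siANP32B replicate 1 and 1048 without siANP32B replicate 2. The total length was 10320 to 15688 kb, the median 7 to 8 kb, the share of gaps filled 10.1% to 13.8%, the share in protein-coding gene bodies 37.5% to 48.4% (the highest without siANP32B replicate 2), the number over 50 kb 19 to 49, their share on chromosomes 2, 6, 14, 16, 17 and 20 87.2% to 93.9%, and the number of the reverse kind 377 to 490, so that in each of these 4 settings bridges outnumbered the reverse kind.

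No paired analysis was possible because the results come from no test. As a replicate block, the rule was applied to same-numbered libraries: number 1 alone gave 1329 stretches (19847 kb, median 8 kb, 15.7% of gaps filled), number 2 alone 1593 (25890 kb, 8 kb, 19.9%), and 259 (3070 kb, median 6 kb) lay in both.

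Stricter flanks gave fewer stretches by construction. A domain of both siControl lists on both sides left 8 (61 kb, median 6.50 kb, 0.0908% of gaps), and flanks from the same list left 314 (3579 kb, 3.56%). Without chromosomes 2, 6, 14, 16, 17 and 20 there were 376 (2974 kb, 5.88%). Without the 10% lowest-scored domains of each list there were 443 stretches, the share of gaps filled was 5.28% and the reverse kind numbered 158. Of these stretches 11 were over 50 kb, 81.8% of them on those 6 chromosomes. The cause was not tested. The number kept within 1.5 times of 581 with siANP32B domains running into both flanks (552), equal numbers of best-scored domains (536), a minimum of 3 kb (546) and chromosomes X and Y (583). It also did so without the 10% lowest-scored domains (443) and without siControl replicate 2 (855).

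In the authors' deposited table, the share called lower in joined domains was 33.8% at a false discovery rate of 0.01 (43.5% over all regions), and 54.1% in the flanking siControl domains.

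Domains are calls, not signal, and depth is unknown, so a gap says that no domain was called, not that macroH2A1 was absent. The labels do not say whether the 2 libraries of a group came from separate cultures, and gained chromosomes cannot be told apart from other properties of those chromosomes.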
